A study of Mus musculus with 8 samples.

Results

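The alpha-2-macroglobulin family was examined in RNA-sequencing libraries of mouse fetal liver cells in culture. Its 5 members here, *A2m*, *Pzp*, *Mug1*, *Mug2* and *Cd109*, were taken by their symbols from a table of 23467 genes with distinct symbols, and all 5 were found in it. *A2m* was chosen by its measured values, as its level fell most between genotypes and was very high in 1 control library, and the other 4 members were added as its kin. The study asked how the LATS1/2 kinases, which restrain the co-activators YAP and TAZ in the Hippo pathway, act on liver cell lineage. Cells of whole E14.5 livers, plated on collagen without sorting, were taken as hepatoblasts (iHB), after 5 days with 12.5 ng/ml oncostatin M as hepatocytes (iHP), or after 14 days in Matrigel as biliary epithelial cells (iBEC). These cultures are called stages below, but iHPs and iBECs are alternative fates of the cells, not successive steps. They also differ in matrix, days in culture and added factor. All cells came from mixed B6;129 mice. Control cells were labelled wild type, and L1L2_Alb cells *Lats1-/-;Lats2f/fl;Alb-cre*, a genotype that carries the *Lats1* null allele in every cell and loses *Lats2* only where the albumin promoter drives Cre. Each stage had 1 control library, and L1L2_Alb had 1 library of iHBs, 2 of iHPs and 2 of iBECs, giving 8 libraries of 18436865 to 33229075 reads.

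Proteins of this family are large protease traps. A protease cuts a bait stretch, the trap closes around the enzyme, and an internal thioester bond can then tie the protease covalently to its captor, after which the complex is cleared through the receptor LRP1. *A2m* encodes alpha-2-macroglobulin and *Pzp* its close relative pregnancy zone protein, both tetramers secreted by the liver into plasma, where they also bind growth factors and cytokines. *Mug1* and *Mug2* encode the murinoglobulins, single-chain traps made by rodent liver, whereas *Cd109* encodes a membrane-anchored relative that acts as a co-receptor restraining TGFβ signalling. In bulk libraries such as these, fewer cells of a type and less RNA per cell cannot be told apart.

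The thioester codons are shown because they are what the members share by descent. They were found in the GENCODE transcript of each member, in frame within the coding sequence, and 0.0776% of the 141767 mouse transcripts hold such a stretch. Each line below gives 30 bases on either side of the codons, which are in capitals, from GRCm38.p6.
A2m: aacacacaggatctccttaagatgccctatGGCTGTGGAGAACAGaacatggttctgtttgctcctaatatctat
Pzp: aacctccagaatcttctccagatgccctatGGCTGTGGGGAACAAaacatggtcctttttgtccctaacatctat
Mug1: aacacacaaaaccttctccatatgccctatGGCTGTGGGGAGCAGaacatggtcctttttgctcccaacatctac
Mug2: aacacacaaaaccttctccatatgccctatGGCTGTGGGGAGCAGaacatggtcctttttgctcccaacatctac
Cd109: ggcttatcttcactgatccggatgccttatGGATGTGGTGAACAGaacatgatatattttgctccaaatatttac
The stretch lies in exon 24 of *A2m* (chr6:121668072-121668146, plus strand), exon 24 of *Pzp* (chr6:128491572-128491646, minus strand), exon 24 of *Mug1* (chr6:121878937-121879011, plus strand), exon 24 of *Mug2* (chr6:122075171-122075245, plus strand) and exon 23 of *Cd109* (chr9:78691215-78691289, plus strand). *Mug1* and *Mug2* were identical at 75 of 75 bases, and so was the pseudogene *Mug-ps1*. *A2m* matched *Pzp* at 61 of 75 bases and *Cd109* at 49.

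Before the results, several features of the libraries bear on them. The targeted genes were not lower in the libraries labelled L1L2_Alb. *Lats1* was at 5.38 to 11.2 RPKM (reads scaled to gene length and library depth) in the controls and at 7.12 to 22.7 in the libraries labelled L1L2_Alb, where only iHP replicate 2 lay below its control. *Lats2* was at 6.90 to 10.1 RPKM in the controls and 10.9 to 27.6 in the others, a log2 difference of 0.90 ± 0.20 (SE; limma adjusted p = 0.0312). Values over a whole gene do not separate the deleted exons, so "L1L2_Alb" below always means the label. Biliary markers did not go one way in the control iBEC library. The sum of 6 such genes was highest there, at 23440 RPKM against 2331 to 11720 elsewhere, nearly all of it *Spp1* at 23270, and *Sox9* was at 13.3 RPKM against 5.53 in control iHBs. In contrast, *Krt7* was at 62.3 RPKM, *Krt19* at 83.7 and *Epcam* at 2.96, against 400, 273 and 55.0 in control iHBs. *Alb* was at 6162, the highest of the 8 libraries. *Alb* RNA was present throughout, at 524 to 6162 RPKM, whereas *Cyp2e1*, another listed hepatocyte gene, was at 0.156 to 0.362 RPKM. The T cell gene *Cd3e* was at 0 in every library. The 4 leukocyte genes, of which it is 1, summed to 46.4 to 154 RPKM in controls and 29.4 to 113 in L1L2_Alb libraries. *Itgam* led that sum in each library.

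*A2m* was the member with the widest range. Its level was 18.5 RPKM in control iHBs, 166 in control iHPs and 2983 in control iBECs. In the libraries labelled L1L2_Alb it was 0.865 RPKM in iHBs, 9.87 and 8.49 in iHPs, and 107 and 239 in iBECs. Within each stage every L1L2_Alb library lay below the control, although over all stages the genotypes overlapped, since L1L2_Alb iBECs were above control iHBs. In control iBECs *A2m* stood 27th of all genes by RPKM and took 463032 reads, 1.39% of the library. In control iHBs it stood 5129th.

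The order of the *A2m* levels followed stage within each genotype. Among the controls the level was 8.98-fold higher in iHPs than in iHBs (95% interval 8.61 to 9.37) and 162-fold higher in iBECs (155 to 168). These intervals, as all counting intervals here, cover the sampling of reads only, and with 1 control library per stage these folds were not tested. The 2 L1L2_Alb iHP libraries, at 9.87 and 8.49 RPKM, are neighbours in this order that differ little, and both were below control iHBs. The plot of levels by library shows this order for *A2m* and *Pzp*.

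**Figure D1:**
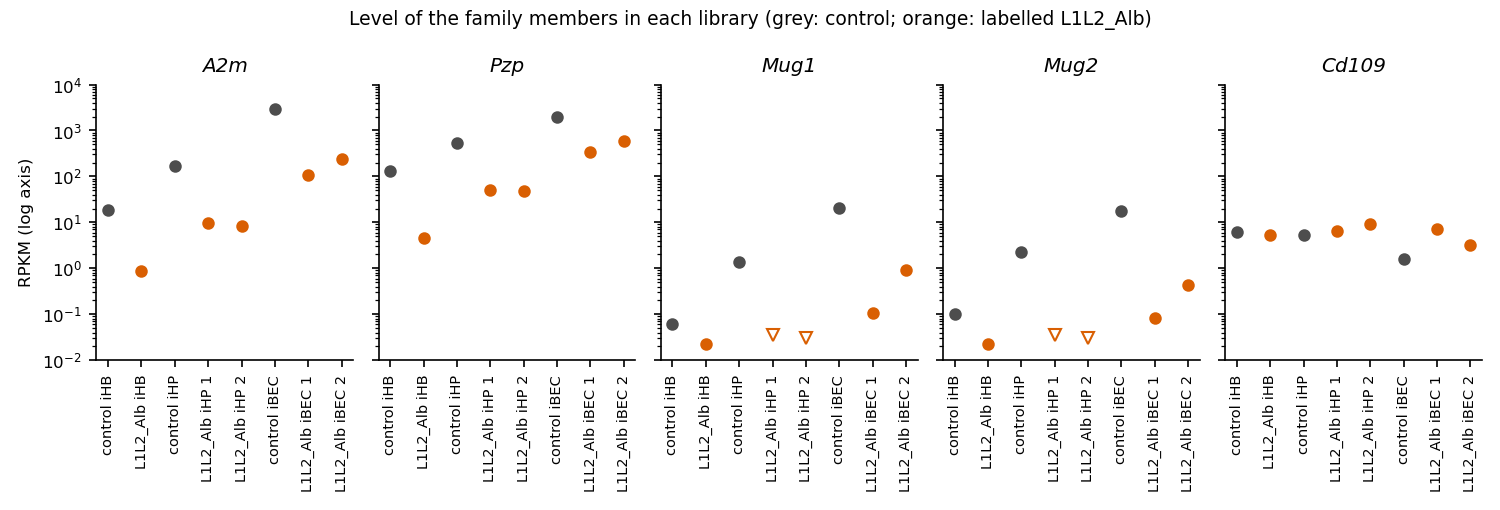
RPKM (log axis) of each family member in each of the 8 libraries, 1 point per library, with controls in grey and libraries labelled L1L2_Alb in orange. Open triangles mark libraries with no read, drawn at the level of 3 reads. *A2m* runs from 0.865 to 2983 RPKM, whereas *Cd109* stays between 1.63 and 9.09.

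*A2m* was chosen for its genotype difference, which is therefore given as a description. The control level exceeded the L1L2_Alb level 21.3-fold in iHBs, 16.8- and 19.5-fold in iHPs, and 27.8- and 12.5-fold in iBECs. On the log2(RPKM + 1) scale the difference common to the stages was -3.92, the lowest of 13421 genes tested. The next lowest were *Mpo* at -3.85 and *Prg2* at -3.74, which encode granule proteins of neutrophils and eosinophils. The place of *A2m* in this order depended on the scale, being the 7th lowest with a pseudocount of 0.1 and the 25th lowest without the iBEC libraries.

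*Pzp* had a higher basal level than *A2m* and moved the same way. It was at 128 RPKM in control iHBs, 533 in control iHPs and 1986 in control iBECs. The libraries labelled L1L2_Alb had 4.53 RPKM in iHBs, 51.0 and 48.6 in iHPs, and 340 and 597 in iBECs. All 5 were below the control of their stage. The fold was largest in iHBs, at 28.3, smaller in iHPs, at 10.5 and 11.0, and smallest in iBECs, at 5.84 and 3.32.

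*Pzp* passed the test of the genotype difference common to the stages. Of 13421 genes, 9.57% were called at an adjusted p under 0.05, namely 832 higher (6.2%) and 452 lower (3.37%), or 612 higher and 577 lower with upper-quartile scaling. *Pzp* fell by 3.25 on the log2(RPKM + 1) scale (SE 0.39, 95% interval -4.15 to -2.35; limma adjusted p = 0.00366). Without the 3 iHP libraries the change was -3.17 and the adjusted p 0.0727. Lying below control in all 5 L1L2_Alb libraries was itself common, being true of 10.1% of the genes tested. The differences within stages were -4.55 in iHBs, -3.39 ± 0.05 (SD, n = 2) in iHPs and -2.14 ± 0.57 (SD, n = 2) in iBECs, compared with -3.38, -4.04 ± 0.14 and -4.21 ± 0.81 for *A2m*.

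**Figure D2:**
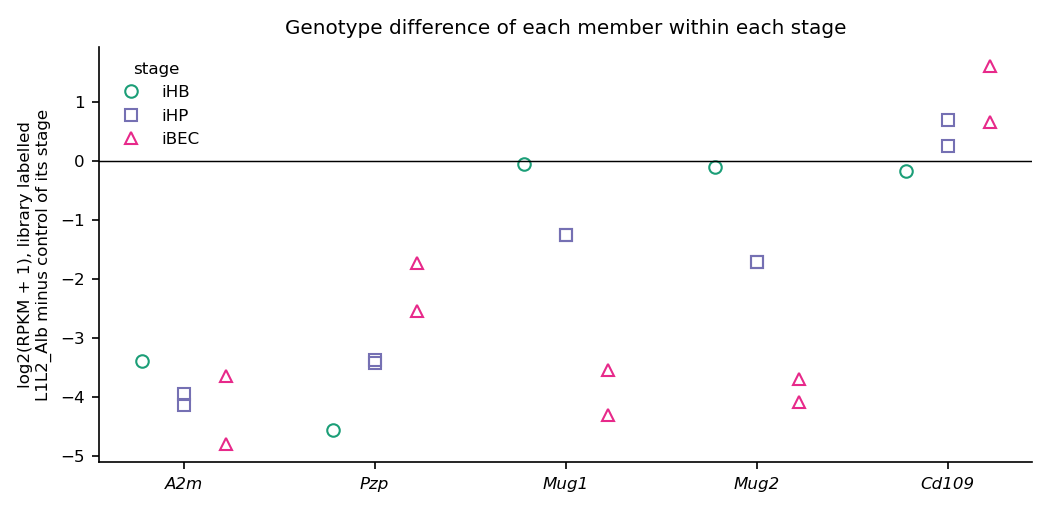
Difference in log2(RPKM + 1) between each library labelled L1L2_Alb and the control library of its stage, 1 symbol per library and 1 shape per stage. *A2m* and *Pzp* lie below 0 in every stage, *Mug1* and *Mug2* lie near 0 in iHBs and lowest in iBECs, and *Cd109* lies below 0 in iHBs and above it in the other stages.

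The murinoglobulin genes were nearly silent outside control iHPs and iBECs. *Mug1* had 8 reads (0.0604 RPKM) in control iHBs, 180 (1.38 RPKM) in control iHPs and 3240 (20.9 RPKM) in control iBECs. In the libraries labelled L1L2_Alb it had 3 reads in iHBs, 0 in both iHP libraries, and 13 and 100 reads in iBECs, the last being 0.901 RPKM. *Mug2* gave 13, 287 and 2632 reads in the same controls (0.101, 2.26 and 17.4 RPKM), and 3, 0, 0, 10 and 47 reads in the L1L2_Alb libraries. Relative to control iHBs, control iBECs had 347-fold more *Mug1* (176 to 804) and 173-fold more *Mug2* (101 to 326), the widest intervals in the family since they rest on few reads.

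As linear folds, the genotype differences of the murinoglobulin genes in iBECs were larger than those of *A2m*. In iBECs the control exceeded L1L2_Alb replicates 1 and 2 194-fold (113 to 365) and 23.3-fold (19.1 to 28.7) for *Mug1*, and 205-fold (111 to 428) and 40.2-fold (30.1 to 54.8) for *Mug2*. In iHPs, against the level of 3 reads per library, *Mug1* was at least 39.5- and 45.7-fold lower and *Mug2* at least 63.0- and 72.8-fold lower in the libraries labelled L1L2_Alb. In iHBs, where L1L2_Alb had 3 reads of each gene, the ratio for *Mug1* was 2.69 (0.645 to 15.7), a difference that was not detectable at this depth, and that for *Mug2* was 4.37 (1.20 to 23.9).

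Neither murinoglobulin gene passed the test of the common difference. The change was -1.89 for *Mug1* (SE 0.61, 95% interval -3.29 to -0.50; limma adjusted p = 0.0893) and -2.06 for *Mug2* (SE 0.57, -3.36 to -0.76; adjusted p = 0.0583). Both entered the fit only because of their control iBEC level, where they are high, so these tests are no evidence either way, and log2(RPKM + 1) compresses their change. The *Mug1* and *Mug2* values are also not fully separate: 20.9% of the 50-base windows of the *Mug1* transcript occur in that of *Mug2*, and 29.6% of the *Mug2* windows occur in *Mug-ps1*. No such window was shared between *A2m*, *Pzp* or *Cd109* and any other member. The pseudogene itself had 916 reads in control iBECs and 0 and 12 in the L1L2_Alb iBEC libraries.

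The upstream sequences of the murinoglobulin genes are shown because these genes moved together. Of the members, the RefSeq promoter table (GRCm38.p6) held *Mug1*, *Mug2* and *Pzp*, and none was used for *A2m* and *Cd109*. Each line gives the 250 bases before the annotated start, 5′ to 3′ on the strand of the gene, and the capitals mark the longest run identical in *Mug1* and *Mug2*, 52 bases.
Mug1 (chr6:121838291-121838540, plus strand): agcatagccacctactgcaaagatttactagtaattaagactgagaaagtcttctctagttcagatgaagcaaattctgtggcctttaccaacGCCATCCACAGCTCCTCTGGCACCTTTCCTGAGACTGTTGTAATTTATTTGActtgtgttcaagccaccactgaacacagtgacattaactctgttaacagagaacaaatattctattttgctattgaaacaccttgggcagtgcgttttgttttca
Mug2 (chr6:122006548-122006797, plus strand): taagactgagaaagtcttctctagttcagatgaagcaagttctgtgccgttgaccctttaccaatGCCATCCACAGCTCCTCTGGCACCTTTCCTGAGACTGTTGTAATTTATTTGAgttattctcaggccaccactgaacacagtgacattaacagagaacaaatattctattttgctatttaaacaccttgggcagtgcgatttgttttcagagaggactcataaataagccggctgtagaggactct
Pzp (chr6:128526721-128526970, minus strand): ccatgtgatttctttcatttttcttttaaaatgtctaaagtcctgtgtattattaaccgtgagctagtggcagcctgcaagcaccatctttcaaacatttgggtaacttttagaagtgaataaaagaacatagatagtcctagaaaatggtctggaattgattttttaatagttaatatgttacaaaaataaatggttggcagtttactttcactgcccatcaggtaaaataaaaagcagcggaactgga
Aligned end to end, *Mug1* and *Mug2* were identical at 196 of 206 paired bases (95.1%), against 64.1% for *Mug1* and *Pzp*. On either strand, none of these 3 windows held TTCNNNGAA (STAT), GGAATG (TEAD), CAAAGTCCA (HNF4) or TTGCNNCAA (C/EBP), which occur in 7.02%, 12.6%, 0.384% and 1.74% of 32851 mouse promoters. The HNF1 motif, held by 0.131%, was not found in them either. The window of *A2ml1*, a relative outside the family members, was searched too and held a C/EBP match 68 bases before the start. Such a search describes the letters in these windows only.

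*Cd109* stood apart from its secreted kin. Its level was 6.10 RPKM in control iHBs, 5.21 in control iHPs and 1.63 in control iBECs, the reverse of the order for *A2m*. The L1L2_Alb libraries had 5.30 RPKM in iHBs, 6.43 and 9.09 in iHPs, and 7.04 and 3.15 in iBECs. Control iBECs thus had the lowest level of all 8, 3.75-fold below control iHBs. L1L2_Alb iBECs exceeded it 4.33- and 1.94-fold and L1L2_Alb iHPs exceeded their control 1.23- and 1.75-fold, whereas in iHBs the ratio of L1L2_Alb to control was 0.868, a direction that turned under quantile normalization (0.05 on the log2 scale).

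The common difference of *Cd109* did not pass the test. It was 0.54 on the log2 scale (SE 0.31, 95% interval -0.18 to 1.26; limma adjusted p = 0.326), higher in 4 of 5 libraries. The stage differences were -0.17 in iHBs, 0.48 ± 0.31 (SD, n = 2) in iHPs and 1.14 ± 0.67 (SD, n = 2) in iBECs. The median over all genes was itself 0.25 in iBECs as deposited and 0.07 after upper-quartile scaling, and the iBEC value is to be read against it.

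The makeup of the family therefore differed between libraries. As a share of the summed RPKM of the 5 members, *Pzp* led in control iHBs (83.8%) and control iHPs (75.3%), while *A2m* led in control iBECs (59.6%). The ratio of *A2m* to *Pzp* was 1.5 in control iBECs and 0.144 to 0.400 in the other 7 libraries. *Cd109* made up 3.99% of the sum in control iHBs and 49.3% in L1L2_Alb iHBs, where *A2m* and *Pzp* were lowest. In all, the family took 2.34% of the reads in control iBECs and 0.00566% in L1L2_Alb iHBs. *Mug2* was above *Mug1* in both control iHBs and iHPs (ratios of RPKM 1.67 and 1.63) and below it in the 3 iBEC libraries (0.833, 0.788 and 0.482). The ratio in control iHBs rests on 13 reads of *Mug2* and 8 of *Mug1*. That in L1L2_Alb iBEC replicate 1 (0.788) rests on 10 and 13. Reads of these genes are not fully separate, and a change of their ratio with stage was not tested.

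**Figure D3:**
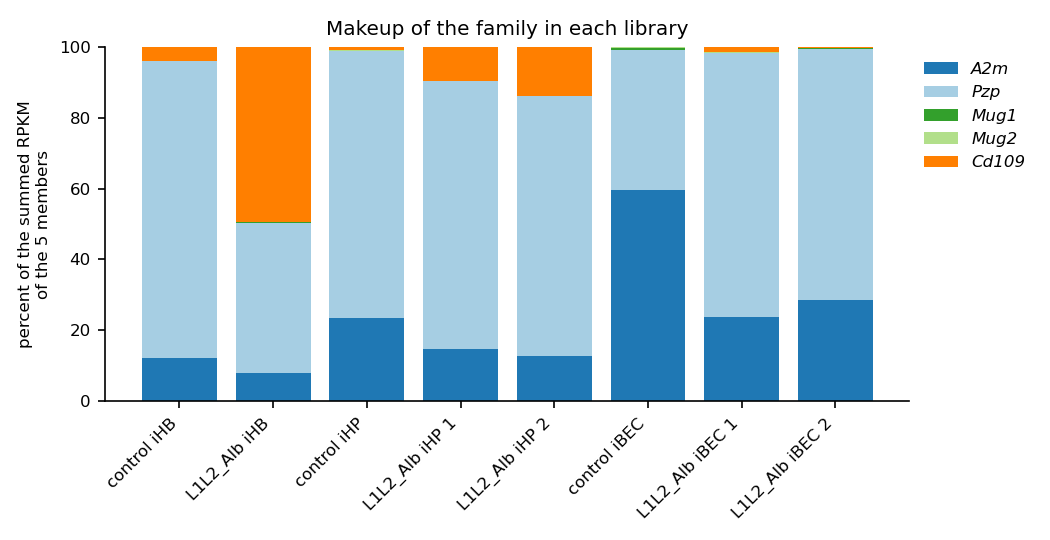
Share of each member in the summed RPKM of the 5 members, in percent, as 1 stacked bar per library starting at 0. *A2m* takes 59.6% in control iBECs and 28.4% or less elsewhere, and *Cd109* takes 49.3% in L1L2_Alb iHBs.

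The libraries labelled L1L2_Alb retained a stage difference in *A2m* and *Pzp*. This comparison set the 2 iBEC against the 2 iHP libraries and used no control. The L1L2_Alb values had a part in the choice of *A2m*, so its difference is given without a test. *A2m* averaged 18.9-fold more RPKM in L1L2_Alb iBECs than in L1L2_Alb iHPs and *Pzp* 9.41-fold more, and for both genes the lower iBEC library was above the higher iHP library. On the log2 scale *A2m* was higher by 3.99 and *Pzp* by 3.15 (SE 0.36, 95% interval 2.31 to 4.00; limma adjusted p = 0.00987). Of the 13421 genes, 3.67% were called in this comparison, 3.16% higher and 0.507% lower in iBECs.

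The other members were not called in this comparison. *Mug1* and *Mug2* entered the fit only through control iBECs, so their results here are no evidence either way. The differences were 0.54 for *Mug1* (adjusted p = 0.482), 0.32 for *Mug2* (adjusted p = 0.65) and -0.58 for *Cd109* (95% interval -1.52 to 0.36; adjusted p = 0.501). With 2 libraries on each side the call of *Pzp* depended on single libraries. Without L1L2_Alb iHP replicate 1 or replicate 2 its adjusted p was 0.0829 or 0.0761, and without L1L2_Alb iBEC replicate 2 it was 0.0583.

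Whether the genotype difference varied between stages was tested by the interaction, which called 0 of 13421 genes by limma, 733 of them having an unadjusted p under 0.05. The unadjusted p was 0.0246 for *Pzp*, 0.00136 for *Mug1*, 0.000797 for *Mug2* and 0.276 for *Cd109*, and the lowest adjusted p among them was 0.297. *Mug1* and *Mug2* entered this fit only through control iBECs, the same library that shapes their interaction, so their p-values are no evidence either way. With a pseudocount of 0.1 their unadjusted p by limma was 0.0836 and 0.0566. On the log2(RPKM + 1) scale, *Pzp* differed most in iHBs and least in iBECs, and *Mug1* and *Mug2* the reverse. These orders are thus descriptions. As linear folds, the differences of *Mug1* and *Mug2* were not larger in iBEC replicate 2 than in iHPs. In iBEC replicate 2 these genes were 23.3- and 40.2-fold below control, against at least 39.5- and 63.0-fold in iHPs.

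Of 5 other genes of the thioester superfamily, 3 fell. *C3*, the central complement component, was at 874, 2040 and 3882 RPKM in control iHBs, iHPs and iBECs, and at 125, 386, 428, 838 and 1307 in the L1L2_Alb libraries in the same order. Its common difference was -2.30 (SE 0.25; limma adjusted p = 0.00228). *Hc*, which encodes complement C5, changed by -1.68 (adjusted p = 0.0276), and *A2ml1*, listed under its older symbol BC048546, by -0.99 (adjusted p = 0.028), under 9 of the 15 settings tried. *C4a* (-1.91, adjusted p = 0.0927) and *C4b* (-2.38, adjusted p = 0.0568) did not pass, and their values in L1L2_Alb iHPs were uneven, with *C4b* at 48.3 RPKM in replicate 1 and 9.49 in replicate 2. Of the 5 relatives tested, 3 were therefore lower, against 3.37% of all genes, and 0 without the iHP libraries. *C4a* and *C4b* are near-identical copies, so the division of their reads is uncertain. Between L1L2_Alb iBECs and iHPs only *A2ml1* was called, higher by 2.08 (adjusted p = 0.0189).

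The partners of the family did not move as 1 group. Among receptors and chaperones, *Lrp1*, the clearance receptor, was at 61.2 to 81.9 RPKM in controls and 21.1 to 126 in L1L2_Alb libraries, a difference of -0.70 that did not pass (adjusted p = 0.34). *Lrpap1*, its chaperone in the endoplasmic reticulum, rose by 1.58 (adjusted p = 0.00979) and was higher in all 5 L1L2_Alb libraries, whereas *Lrp1b* had no read in any library. Of 8 tested genes for proteases that alpha-2-macroglobulin traps, 2 fell (0 to 4 over the settings tried), against 3.37% of all genes, *Plg* (plasminogen, -2.55, adjusted p = 0.00411) and *F2* (prothrombin, -1.19, adjusted p = 0.00498), both of them also liver plasma proteins. The neutrophil protease genes *Elane* and *Ctsg* had differences of -3.32 and -3.17 that did not pass (adjusted p = 0.084 and 0.0588). The median over the 8 was -1.10, against 0.06 over all genes.

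Of 8 cytokine genes whose products alpha-2-macroglobulin binds, 1 rose, against 6.2% of all genes, and 0 to 2 rose over the settings tried. *Tgfb2* was at 7.83, 5.07 and 1.19 RPKM in control iHBs, iHPs and iBECs and at 27.9, 17.6, 20.1, 4.39 and 3.93 in the L1L2_Alb libraries, a difference of 1.54 (adjusted p = 0.00373). Its order over the stages was the reverse of that of *A2m*, and it fell by 1.94 from L1L2_Alb iHPs to iBECs (adjusted p = 0.0208). *Il6*, which induces acute-phase genes, differed by -0.18 (adjusted p = 0.837). Of 9 genes on the TGFβ receptor side of *Cd109*, 3 rose (0 to 3 over the settings tried), against 6.2% of all genes, namely *Cav1* (caveolin, 2.98, adjusted p = 0.0043), the co-receptor *Tgfbr3* (2.34, adjusted p = 0.0175) and the inhibitor *Smad7* (1.09, adjusted p = 0.0379), the last under 6 of the 15 settings tried. The receptors *Tgfbr1* (-0.64, adjusted p = 0.131) and *Tgfbr2* (0.53, adjusted p = 0.157) were not called.

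The gp130 pathway, through which oncostatin M and interleukin-6 act on liver genes, showed no called gene, against 9.57% of all genes. A list of 8 genes is too short to tell 0 called from this share. The 8 genes of this pathway had a median difference of 0.01. By limma 0 of them had an unadjusted p under 0.05, against 3524 of the 13421 genes tested. *Osmr*, the oncostatin M receptor, differed by 0.25 (adjusted p = 0.571), *Stat3* by -0.23 (adjusted p = 0.465) and *Socs3*, a gene induced by STAT3, by 0.11 (adjusted p = 0.81). Between L1L2_Alb iBECs and iHPs likewise 0 of the 8 were called by limma, against 3.67% of all genes. In that comparison 1 of them had an unadjusted p under 0.05, against 2529 of the 13421 genes tested.

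Most listed genes of liver plasma proteins fell. Of 19 acute-phase genes, 14 fell, with a median of -2.60, and of 20 other plasma protein genes 15 fell, with a median of -2.19, against 3.37% of all genes. Among the former, *Itih3*, whose product stabilizes hyaluronan, fell by 3.39 (adjusted p = 0.00445), and *Apcs*, serum amyloid P, had a difference of -3.13 (adjusted p = 0.00285). The 5 acute-phase genes not called were *Orm3* (-2.85), *Saa2* (-2.60), *Saa1* (-2.31), *Lbp* (-0.56) and *Saa3* (-0.24). *Saa3* was below control in 2 of 5 L1L2_Alb libraries, and *Saa1* and *Saa2* in 4. In L1L2_Alb iHBs *Saa3* was at 3516 RPKM, against 1766 in control. Among the other plasma protein genes, *Vtn* (vitronectin) fell by 3.57 (adjusted p = 0.00498), while *Apoa1* was the exception in sign, at 0.65 (adjusted p = 0.35). Without the iHP libraries 2 acute-phase and 2 other plasma protein genes were called, and without the iHB libraries 8 of the latter. From L1L2_Alb iHPs to iBECs, 9 acute-phase genes rose (median 2.81) and 7 of the other 20 (median 1.76), against 3.16% of all genes called higher in that comparison, and these counts were 0 without either iHP library.

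**Figure D4:**
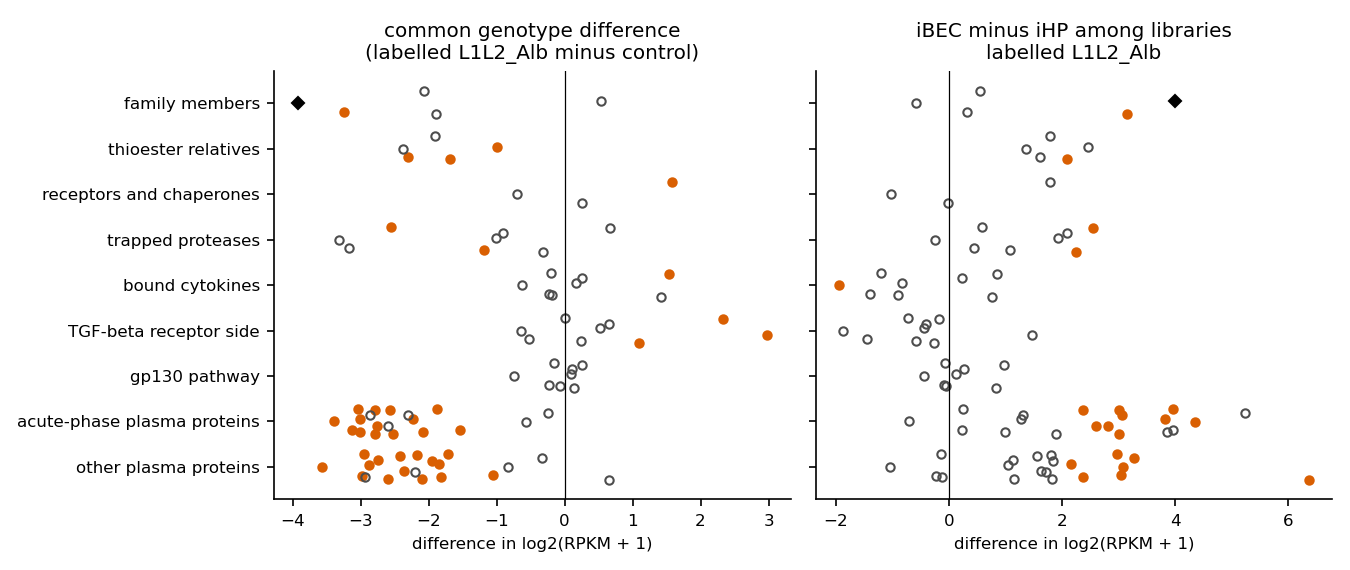
Difference in log2(RPKM + 1) for the family and for the gene lists named in the text, 1 symbol per gene, for the common genotype difference (left) and for iBECs against iHPs among the L1L2_Alb libraries (right). Filled orange circles had an adjusted p under 0.05, open circles did not, and the black diamond is *A2m*, given without a test. Most plasma protein genes lie left of 0 on the left and right of 0 on the right.

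The profile of *A2m* over the 8 libraries was compared with that of every other gene tested. By the root mean square difference of mean-centred log2(RPKM + 1) values, the nearest were *Orm1* (orosomucoid, 0.756), *Itih4* (0.794), *Cpb2* (a plasma carboxypeptidase, 0.832), *Hpx* (hemopexin, 0.837) and *Pzp* (0.949). *Pzp* was thus 5th of 13420 genes, while *Mug1* was 185th, *Mug2* 211th and *Cd109* 12364th. *Mug1* and *Mug2* were among the genes compared only through control iBECs, where *A2m* is also highest. Their places are therefore no evidence either way. *Orm1* rose from 36.4 RPKM in control iHBs to 729 in control iHPs and 5934 in control iBECs, and *Hpx* from 499 to 3390 and 22020. In L1L2_Alb iBECs *Orm1* was at 707 and 1996 RPKM. The profiles nearest to *Cd109* were those of *Bhlhb9* (0.16), *Mir1966* (0.184) and *Calr3* (0.203). These measures share the 8 libraries and are a description.

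**Figure D5:**
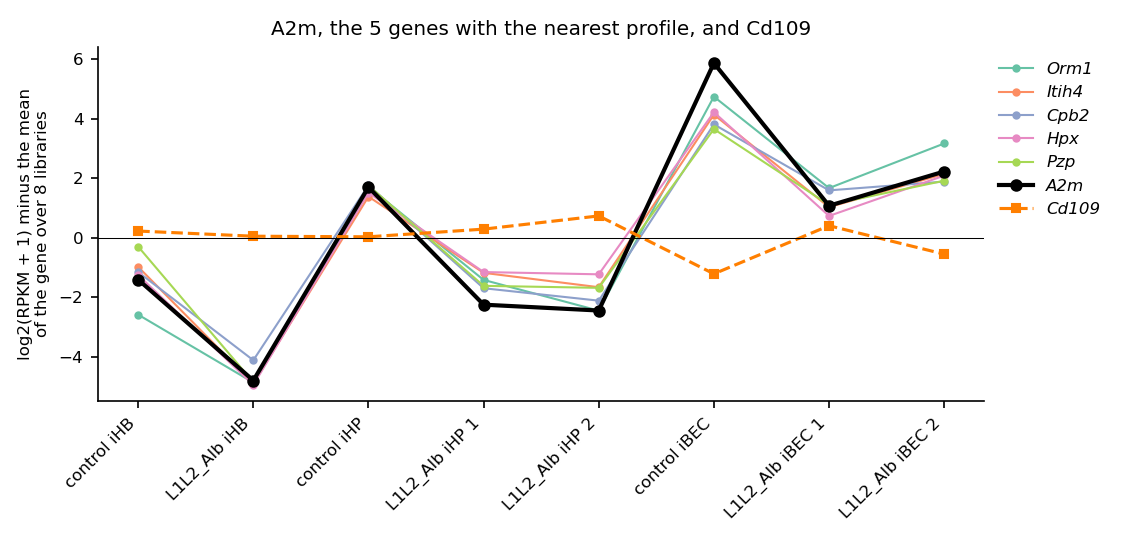
Mean-centred log2(RPKM + 1) of *A2m* (black), of the 5 genes nearest to it and of *Cd109* (dashed orange) over the 8 libraries, joined by lines to guide the eye. The 5 genes follow *A2m*, lowest in L1L2_Alb iHBs and highest in control iBECs, where *Cd109* is lowest.

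Markers of hepatocytes and of other cells were read beside these values. The summed RPKM of 8 hepatocyte genes did not separate the genotypes, at 5338 to 11190 in controls and 6506 to 10120 in L1L2_Alb libraries. This sum was mostly *Apoa1* and *Alb*, with *Apoa1* at 8670 of 9283 RPKM in L1L2_Alb iHBs. The genes went different ways. *Alb*, *Ttr*, *Hnf4a* and *G6pc* were below the control of their stage in every L1L2_Alb library. *Apoa1* was higher than control in L1L2_Alb iHBs and iHPs. *Cps1* and *Tat* were higher in L1L2_Alb iBEC replicate 1 than in control iBECs, and lower than control in the other L1L2_Alb libraries. *Hnf4a*, the hepatocyte transcription factor, was at 48.4 to 99.5 RPKM in controls, highest in iBECs, and at 20.2 to 45.6 in L1L2_Alb libraries. The summed RPKM of 7 mesenchymal genes was 2379 to 3872 in controls and 652 to 3524 in L1L2_Alb libraries, with *Col1a1*, *Col1a2* and *Col3a1* leading. The 4 stellate cell genes summed to 21.0 to 69.1 RPKM in controls and 12.1 to 68.1 in the others, with *Reln* at or below 0.174, and the 5 endothelial genes to 1.54 to 5.30 and 1.73 to 4.39. The sum of 6 macrophage genes was 1547 to 2394 in controls and 762 to 3617 in L1L2_Alb libraries, led by *Lyz2*. Erythroid genes summed to 2.55 to 107 RPKM in controls and 1.57 to 22.0 in L1L2_Alb libraries. For *Cd109*, which basal epithelia express, the basal or squamous sum was 2.36 to 3.16 in controls and 1.57 to 24.8 in L1L2_Alb libraries, led by *Krt6a* in the L1L2_Alb libraries and in control iHPs, by *Krt5* in control iHBs and by *Trp63* in control iBECs, with *Krt14* at 0 in 6 libraries. The part of these cells in the family's values was not tested.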

How the data were processed

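Libraries were prepared by the authors with a TruSeq kit and sequenced on a HiSeq instrument, and the submitters' processing notes name Bowtie 0.12.2 and the build mm8. How reads were counted was not given in the sources used here. The deposited table holds 1 value per gene and library, inferred to be RPKM: in each library 108 to 147 genes for short RNAs gave the same depth, with which the values of the 5 members correspond to whole reads within 0.01. The table had 23471 entries, of which 4 with repeated symbols were dropped. The labels do not say whether the libraries of a group came from separate embryos, so the spread between replicates may be technical only. In the fit of the common difference, the error also holds how far the genotype difference varied between stages. Its p-values therefore do not measure replicate spread alone, and no stage had a replicated control.

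The deposited RPKM values were changed to log2(RPKM + 1). Genes averaging 1 RPKM or more over the libraries, 13421 in number, entered limma 3.58.1 (R 4.3.3) with stage and genotype as terms (4 residual degrees of freedom) or on the 6 conditions (2 residual degrees of freedom), the 2 fits giving the common difference and the other comparisons. Tests were two-sided, with Benjamini-Hochberg adjustment over all genes tested and a threshold of 0.05. *A2m* was not tested, since its values chose it. The test was also run on simulated data with independent noise for each gene and library. Such data cannot show how it behaves where replicates are not independent. Ratios of reads have exact 95% intervals, and levels without reads are bounded at 3 reads. Transcripts came from GENCODE M21 and promoters from RefSeq, both on GRCm38.p6, which is not the build of the files. Named genes were the 5 members, the listed genes, the 5 nearest to *A2m* and the 3 nearest to *Cd109*; *Mpo* and *Prg2* were named after their values were seen. The members and lists were chosen with earlier results of these data known. Of the 6 relatives listed, *Cpamd8* was not analysed here. Alternatives were another pseudocount, scaling or filter, no trend, leaving out a library or a stage, averaging replicates, and a replicate block.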

Additional observations from a re-analysis of the deposited data

Results flagged for a closer look

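*Cd109* was set aside for a closer look because its genotype difference pointed in opposite directions between stages. In iHBs the only L1L2_Alb library was 0.17 below its control on the log2(RPKM + 1) scale. In iHPs both L1L2_Alb libraries were above theirs, by a mean of 0.479, and in iBECs both were above, by a mean of 1.14. The contrast rests on directions, and with 1 control library per stage the differences within a stage were not tested. The interaction over the stages did not pass (unadjusted p = 0.276), and the iHB difference was 0.05 under quantile normalization, so the opposite direction in iHBs rests on a change smaller than the SD between replicates of the other stages.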

How the results depend on the processing

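The common genotype difference called 1284 genes as reported, 686 with no filter on low values, 2215 at an adjusted p under 0.1, 326 without the iHB libraries, 132 without the iHP libraries, and 793 to 1227 with 1 of the 4 L1L2_Alb iHP and iBEC libraries left out, the lowest being without iBEC replicate 2 and 844 without iHP replicate 1. Leaving out the L1L2_Alb iHB library alone was not run, and would leave that stage with its control only. *Pzp* kept its direction under all 15 alternatives and an adjusted p under 0.05 in 14, the exception being -3.17 (adjusted p = 0.0727) without the iHP libraries. *Mug2* passed with a pseudocount of 0.1 (-3.96), without the iHB libraries (-2.79) and at an adjusted p under 0.1 (-2.06), where *Mug1* (-1.89) passed too, but both genes entered the fit only through control iBECs, so these calls are no evidence of a difference. From L1L2_Alb iHPs to iBECs 492 genes were called as reported, 0 with no filter, 0 to 126 with 1 library left out (0 without either iHP library, 81 and 126 without iBEC replicate 1 and 2), and 911 with the replicate block. With no filter *Pzp* (3.15, adjusted p = 0.164) was not called, and *A2m*, given without a test, was at 3.99. With 1 library left out *A2m* was 3.42 to 4.56 and *Pzp* 2.75 to 3.56. Whether the replicate numbers pair the libraries is not known. Deviations of same-numbered iHP and iBEC libraries had a correlation of -0.0216 over 13421 genes, which cannot decide it with 2 libraries per group. Under the replicate block the limma adjusted p of *Pzp* was 0.000443. *Cd109* within iHBs turned from -0.17 to 0.0499 under quantile normalization. *Mug1* and *Mug2* were not tested where a mean of 5 RPKM was required. *Mug1* and *Mug2* had 0 to 100 reads in L1L2_Alb libraries, so their ratios there have wide counting intervals. The causes of these changes were not tested.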
